A study of Mus musculus with 24 samples.

Results

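The comparison set 4 arrays of cultured mouse hepatocytes, taken 28, 30, 32 and 34 h after a serum shock, against the 4 arrays taken exactly 24 h later, at 52, 54, 56 and 58 h. The 8 arrays were chosen by time alone out of the 24 of the series. Each pair shared its phase if the cells' own cycle lasted 24 h, and the length of that cycle was not tested. The difference between the groups is that of a later day from an earlier one. Of 45037 probe sets outside the array's controls, the 18354 with a log2 level of at least 5 on at least 4 of the 8 arrays were described, and these stood for 9763 genes.

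The cells of both groups were MMH-D3, 1 line of immortalized mouse hepatocytes. MMH lines were derived from the liver of mice that carry a shortened, constantly active form of the growth factor receptor MET. How the line was derived does not tell whether the cells were dividing at the hours sampled. Both groups had been grown to confluence, differentiated for 14 days in medium with 2% DMSO and synchronized by the same serum shock, a brief exposure to much serum, which sets the clocks of cultured cells to one phase. No untreated culture was part of the comparison, and time after the shock was the only labelled difference between the groups. Each time point had 1 array, and the labels do not say whether the samples came from separate cultures, so the p-values measure only the spread between these arrays, which may be technical in part.

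A hepatocyte keeps its 24 h clock through BMAL1 and CLOCK, which switch on the genes of the PER, CRY and REV-ERB proteins that later repress them. Beside the clock it adjusts its genes to its supplies. When amino acids run short or unfolded protein accumulates, kinases phosphorylate the initiation factor eIF2, and the transcription factor ATF4 is then translated and, with its partners CHOP and C/EBP, raises genes for amino acid import, amino acid synthesis and the charging of tRNAs. Sterol supply acts through SREBP2 on the enzymes that build cholesterol, and oxygen supply acts through HIF on glycolysis and on genes of low-oxygen adaptation.

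Levels are log2 GCRMA values, on which a step of 1 is a 2-fold difference, and the levels of the 4 arrays of a group are given in order of hour. The difference, always the later group minus the earlier one, comes from a limma fit with the pair as a block, with its standard error (SE, n = 4 pairs) and a p-value adjusted by the Benjamini-Hochberg method over all 18354 probe sets. A gene is said to have risen or fallen where this adjusted p was below 0.05. With 4 pairs an exact sign-flip test of a single gene could not go below a two-sided p of 0.125. A gene was read from its probe set of highest mean level.

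The 8 arrays were alike in scale. Their median level over the described probe sets lay between 9.07 and 9.10 in the earlier group and between 9.11 and 9.14 in the later one. The lowest value of the table, 2.17, took up 40.5% to 41.3% of the values on the earlier arrays and 41.1% to 41.8% on the later ones. The median of an array's 7 correlations with the rest, across probe sets, was between 0.977 and 0.981, so no array stood apart. The 4 pair differences correlated with each other at 0.58 to 0.89 across probe sets, which are not independent replicates.

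A large part of the transcriptome differed between the days. Of the 18354 probe sets, 6516 (35.5%) passed the test, of which 3822 (20.8%) were higher on the later day and 2694 (14.7%) lower. After each array was centred on its median 3117 were higher and 3208 lower, so the excess of rises turned, and at 2-fold or more 278 and 285. Counted by gene, 3608 of 9763 (37%) passed, with 2065 (21.2%) higher and 1543 (15.8%) lower. Most changes were small. The median size of a difference was 0.18, the middle 9 in 10 genes lay between -0.57 and 0.62, and the median over all genes was 0.03. Only 571 probe sets (3.11%) passed and differed by at least 2-fold. Counted by gene, each from its probe set of highest mean level, 158 rose and 166 fell by as much. The levels of the 2 groups did not overlap for 7262 probe sets (39.6%). The count of 6516 was 2571 with no filter on low values, when all 45037 probe sets were tested. It fell to 3472 without the pair of 34 and 58 h and to 3691 without the pair of 32 and 56 h. In 53.6% of genes all 4 pairs moved in the same direction. At the edge of the filter, the 111 probe sets with exactly 4 arrays at or above 5 had a median level of 5.02, and the 103 with 3 such arrays, which were left out, one of 4.88.

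Genes of the ATF4 and CHOP pathway rose as a group. The list, called ATF4 and CHOP regulators below, also holds genes downstream of these factors, such as Sesn2, Ddit4 and Vldlr. Of 17 measured, 14 rose and 0 fell, with a median difference of 1.13. Lists can share members: Sesn2 is counted again with mTOR restraint and Cebpb with the liver transcription factors. The member of largest fitted difference was Chac1, an enzyme that breaks down glutathione and a known CHOP target. Its levels were 5.68, 5.68, 5.57 and 5.68 on the earlier day and 11.03, 10.79, 10.94 and 11.03 on the later one. The groups lay far apart, with a fitted difference of 5.30 ± 0.08 (SE, adjusted p = 1.34e-06). Since 5.68 recurred as exactly the same value on 7 of the 24 arrays, the earlier level may not be above background, and no fold is given. Trib3, a pseudokinase that restrains ATF4, measured 6.46, 6.44, 6.42 and 6.40 and then 11.28, 11.32, 11.34 and 11.31, a rise of 4.88 ± 0.06 (adjusted p = 1.34e-06). Within each day the 4 arrays of Trib3 lay close together. Atf3, a stress-induced transcription factor, went from 7.30, 7.07, 7.27 and 7.46 to 10.34, 10.19, 10.19 and 10.11, a rise of 2.93 ± 0.09 (adjusted p = 1.65e-05).

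The transcription factors that head the pathway rose too. Atf4 itself measured 11.79, 11.87, 11.69 and 11.57 on the earlier day and 12.70, 12.84, 12.93 and 12.82 on the later one, a difference of 1.09. Ddit3, which encodes CHOP, rose by 2.30 from 9.66, 9.54, 9.68 and 9.88 to 12.04, 11.97, 11.93 and 12.02. Atf5 rose by 2.21, the stress-responsive chromatin protein gene Nupr1 by 2.29, and Ppp1r15a, the phosphatase subunit GADD34 that reverses eIF2 phosphorylation, by 2.39. Jdp2, Cebpg and Cebpb, which encode bZIP partners of ATF4, rose by 1.14, 0.87 and 0.49. The mRNAs of the eIF2 kinases were the members without a call: the differences were -0.11 for Eif2ak1 (HRI), -0.03 for Eif2ak3 (PERK) and 0.08 for Eif2ak4 (GCN2). Fgf21 lay below the filter. The count of 14 rises was the same without each pair in turn and was 13 with no filter on low values.

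Enzymes of serine, asparagine and one-carbon metabolism followed the same course: 11 of 15 rose and 1 fell, with a median of 1.71. Cth, which makes cysteine from cystathionine, measured 7.46, 7.16, 7.38 and 7.43 and then 11.38, 11.34, 11.39 and 11.18, a rise of 3.96 ± 0.09 (adjusted p = 4.14e-06), or 15.6-fold. Mthfd2, the mitochondrial folate enzyme, rose by 3.0 ± 0.06 (adjusted p = 2.35e-06), from 9.34, 8.81, 8.73 and 8.77 to 12.26, 11.88, 11.77 and 11.74. In this gene the level slipped from the first to the later arrays of both days, so that the 4 pair differences stayed close to each other. Aldh1l2, a mitochondrial formyltetrahydrofolate dehydrogenase, was below 5 on every earlier array, at 2.94 to 3.09, and reached 8.71 to 8.87 on the later ones. It entered through the later group, and 10 of the 11 rises were of genes at 5 or more on all 8 arrays.

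The serine pathway rose along its whole length. Its enzymes in order, Phgdh, Psat1 and Psph, differed by 2.64, 1.33 and 2.63. Asns, asparagine synthetase, measured 10.68, 10.52, 10.32 and 10.34 and then 13.03, 13.08, 13.06 and 13.13, a difference of 2.61. The mitochondrial enzyme Shmt2 rose by 1.71, while its cytosolic counterpart Shmt1 fell by 0.43 ± 0.07 (adjusted p = 0.00641, and 0.0586 with no filter on low values). Aldh18a1 (proline synthesis), Pck2 (mitochondrial PEP carboxykinase) and Gpt2 (alanine transaminase) rose by 1.85, 1.30 and 1.08. The cytosolic folate enzyme Mthfd1 had a difference of 0.03, and Cbs, the enzyme upstream of Cth, one of 0.19, and neither passed the test.

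Of 12 measured amino acid transporters 10 rose and 0 fell, with a median of 1.47, and the groups did not overlap for any of the 10. Over all 9763 genes, 2311 were higher without overlap and 1759 lower. Slc7a5, the light chain of the LAT1 transporter of large neutral amino acids, went from 8.61, 8.44, 8.39 and 8.42 to 11.75, 11.51, 11.60 and 11.65, a rise of 3.16 ± 0.06 (adjusted p = 2.35e-06). Its heavy chain Slc3a2 rose by 1.80. Slc7a11, which pairs with the same heavy chain to import cystine, was below 5 on all earlier arrays, at 3.04 to 3.93, and at 7.64 to 8.56 on the later ones. Slc7a11 entered through the later group, and among the transporters at 5 or more on all 8 arrays 9 of 11 rose. The glycine transporter Slc6a9 rose by 3.26 ± 0.09 (adjusted p = 1e-05), from 7.01, 6.87, 7.12 and 7.19 to 10.36, 10.36, 10.30 and 10.21. The neutral amino acid carrier Slc1a4 rose by 2.35, the cationic amino acid transporters Slc7a2 and Slc7a1 by 1.61 and 1.34, and the glutamine carrier Slc38a2 by 0.97. Slc38a1 and Slc7a7 had differences of 0.06 and -0.15 and did not pass.

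The aminoacyl-tRNA synthetases, which join each amino acid to its tRNA, divided by compartment. Of 19 cytosolic synthetases 15 rose and 0 fell, with a median of 0.95. Yars, for tyrosine, measured 8.07, 8.06, 7.94 and 7.93 on the earlier day and 9.35, 9.53, 9.62 and 9.63 on the later one, a rise of 1.53 ± 0.09 (adjusted p = 0.000142). Lars and Wars, for leucine and tryptophan, rose by 1.26 ± 0.07 and 1.17 ± 0.09 (adjusted p = 0.000123 and 0.000367). Those for glutamine, lysine and histidine did not pass, with differences of 0.09 for Qars, 0.11 for Kars and -0.02 for Hars. Of 15 mitochondrial synthetases, encoded by separate genes, 3 rose and 1 fell, with a median of 0.05. Of these, Ears2 rose by 0.84 ± 0.10 (adjusted p = 0.00188) with each pair left out in turn. The calls of Nars2, Hars2 and Lars2 were lost without the pair of 34 and 58 h (adjusted p = 0.0907, 0.103 and 0.115). The difference between the 2 compartments was not tested.

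**Figure D1:**
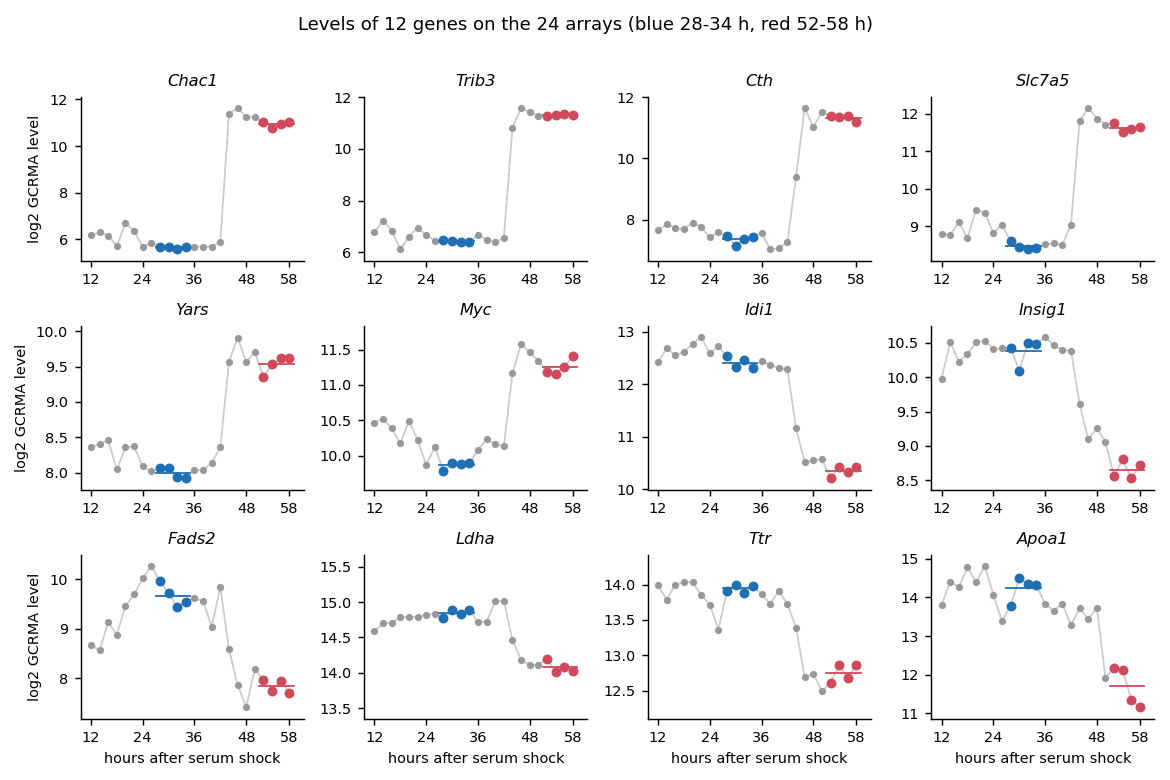
Levels of 12 genes on all 24 arrays, plotted as log2 GCRMA level against hours after serum shock, each panel with its own vertical scale. Blue points are the arrays at 28-34 h, red points those at 52-58 h, lines their means, and grey points the other 16 arrays. Chac1, Trib3, Cth and Slc7a5 sit at 2 separate levels on the compared days, and Idi1, Insig1, Fads2, Ldha, Ttr and Apoa1 are lower on the later day.

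The promoters of these genes were searched for TGATGNAA, the core of the element to which ATF4 binds with C/EBP partners, in RefSeq windows of 300 bases, from 250 before to 50 after each start (GRCm38.p6). The search covered both strands, on which the element reads TTNCATCA in reverse, and it was chosen after the differences had been seen. The element was present in 1304 of 32851 windows (3.97%) and in the windows of 207 of 8021 measured genes (2.58%). It was found for 6 of 17 ATF4 and CHOP regulators, 2 of 13 serine, asparagine and one-carbon enzymes, 3 of 9 amino acid transporters and 5 of 12 cytosolic synthetases. It was found for 0 of 13 mitochondrial synthetases. Of all measured genes that hold it, 69 of 207 (33.3%) rose, against 1601 of 7814 (20.5%) without it. Stretches of 60 bases from 7 of these promoters are shown because their genes were among those that rose, each 5′ to 3′ on the strand of its gene with the element in capitals. They lie at chr2:119351027-119351086 on the plus strand for Chac1, chr1:191183406-191183465 on the minus strand for Atf3, chr7:126625543-126625602 on the minus strand for Nupr1, chr3:50443642-50443701 on the minus strand for Slc7a11, chr6:7693210-7693269 on the minus strand for Asns, chr14:55540141-55540200 on the plus strand for Pck2 and chr8:111033708-111033767 on the plus strand for Aars.
Chac1: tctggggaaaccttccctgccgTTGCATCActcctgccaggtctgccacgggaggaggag
Atf3: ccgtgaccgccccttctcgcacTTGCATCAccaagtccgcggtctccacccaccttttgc
Nupr1: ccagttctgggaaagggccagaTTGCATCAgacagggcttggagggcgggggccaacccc
Slc7a11: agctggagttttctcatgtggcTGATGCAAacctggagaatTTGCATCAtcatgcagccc
Asns: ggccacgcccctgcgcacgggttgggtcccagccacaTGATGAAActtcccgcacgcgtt
Pck2: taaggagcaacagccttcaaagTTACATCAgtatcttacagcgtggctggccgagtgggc
Aars: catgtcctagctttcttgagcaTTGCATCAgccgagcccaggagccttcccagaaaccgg
Chac1, Atf3, Nupr1 and Aars share the same 8 letters, Slc7a11 holds the element once in each orientation, and Asns and Pck2 each differ at the open position. A match of letters is a description of the sequence and does not show binding. The transporter gene Slc7a7, which had a difference of -0.15 and no call, held the element too.

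Some of the largest rises lay outside these lists. The 5 genes of largest difference among those below 5 on every earlier array were Cdsn (corneodesmosin, an adhesion protein of skin), Aldh1l2, Car6 (a secreted carbonic anhydrase), Mei4 (a protein of meiotic recombination) and Angptl6 (a secreted angiopoietin-like factor). Cdsn was at 2.22 on each earlier array and at 8.96, 8.56, 8.81 and 8.74 on the later ones, and Angptl6 went from 3.35 to 3.37 up to 7.68 to 7.92. No size is given for these rises, since a dim probe set has only an upper bound. In all, 33 genes were at 5 or more on the later day only and 32 of them passed, and 14 on the earlier day only, of which 13 passed. Such genes entered the comparison through 1 group and had to differ.

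Among genes measured on all 8 arrays, Stbd1, which tethers glycogen to membranes, rose from 5.39 to 5.68 up to 9.38 to 9.55 (adjusted p = 4.91e-06). Its value of 5.43 recurred exactly on 4 of the 24 arrays, so its earlier level may not be above background and no size is given. Snai2, a transcriptional repressor known from epithelial plasticity, rose from 6.99 to 7.39 up to 10.57 to 10.75 (adjusted p = 6.43e-06), and its 7.39 likewise recurred on 5 of the 24 arrays. The collagenase gene Mmp13 measured 9.05, 8.45, 9.11 and 9.13 and then 11.95, 12.35, 12.17 and 12.30, a rise of 3.26 ± 0.16 (adjusted p = 7.53e-05). Cd53, a tetraspanin best known from leukocytes, rose with a fitted difference of 2.89 ± 0.12 (adjusted p = 4.19e-05). Its mean on the earlier day was 5.81, and a value of 5.75 recurred exactly on 3 of the 24 arrays, none of them compared here. The earlier level may thus not be above background, and no fold is given. Socs2, a feedback inhibitor of cytokine and growth hormone signalling, rose by 2.67 ± 0.14 (adjusted p = 9.14e-05). Beside Cd53, the 6 macrophage markers included Ptprc, Adgre1 and Clec4f at or within 0.01 of the lowest value of the table, Csf1r without a call (-0.01), and Cd68 and Cd14 lower on the later day (-0.94 and -0.18). Their part in the rise of Cd53 was not tested.

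Genes of ribosome assembly rose broadly and by little. Of 30 nucleolar genes of ribosome biogenesis 25 rose and 0 fell, with a median of 0.57. Rrp9, a component of the snoRNP that processes ribosomal RNA, measured 6.55, 6.20, 6.65 and 6.68 and then 7.64, 7.66, 7.60 and 7.75, a rise of 1.14 ± 0.11 (adjusted p = 0.000734). Wdr75 and Nop56, further processing factors, rose by 0.93 ± 0.06 and 0.91 ± 0.09 (adjusted p = 0.000203 and 0.001). The proto-oncogene Myc, a transcription factor known to drive nucleolar genes, rose by 1.39 ± 0.06 (adjusted p = 4.9e-05), from 9.78, 9.89, 9.89 and 9.89 to 11.18, 11.16, 11.25 and 11.40. Of 31 ribosomal protein genes 19 rose and 0 fell, with a median of only 0.12, and this count fell to 9 without the pair of 30 and 54 h, to 9 without that of 32 and 56 h and to 10 without that of 34 and 58 h. It was 11 when each array was centred on its median and 2 with no filter on low values, where 11 nucleolar genes rose. Ribosomal protein genes have many near-identical copies, which the probes may not tell apart.

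The genes of translation initiation and of restraint on the growth kinase mTOR went both ways, with 8 of 19 higher, 3 lower and a median of 0.07. Genes that act as brakes stood among both the rises and the falls. Sesn2, a leucine sensor, rose furthest, by 1.13 ± 0.08 (adjusted p = 0.000255). Eif4ebp1, the repressor of cap-dependent initiation, rose by 0.92 ± 0.06 (adjusted p = 0.000203). Deptor, an inhibitory mTOR subunit, rose by 0.64 ± 0.08 (adjusted p = 0.00168). Ddit4 (REDD1), another mTOR inhibitor, rose by 0.61. Sesn3 and Tsc2 fell by 0.37 and 0.35, and without the pair of 34 and 58 h their adjusted p was 0.0514 and 0.0929. Of the 3 falls 0 remained without that pair and 1 without that of 32 and 56 h. Eif4ebp2 fell by 0.30 in its brightest probe set, and another of its probe sets had a difference of 0.01.

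**Figure D2:**
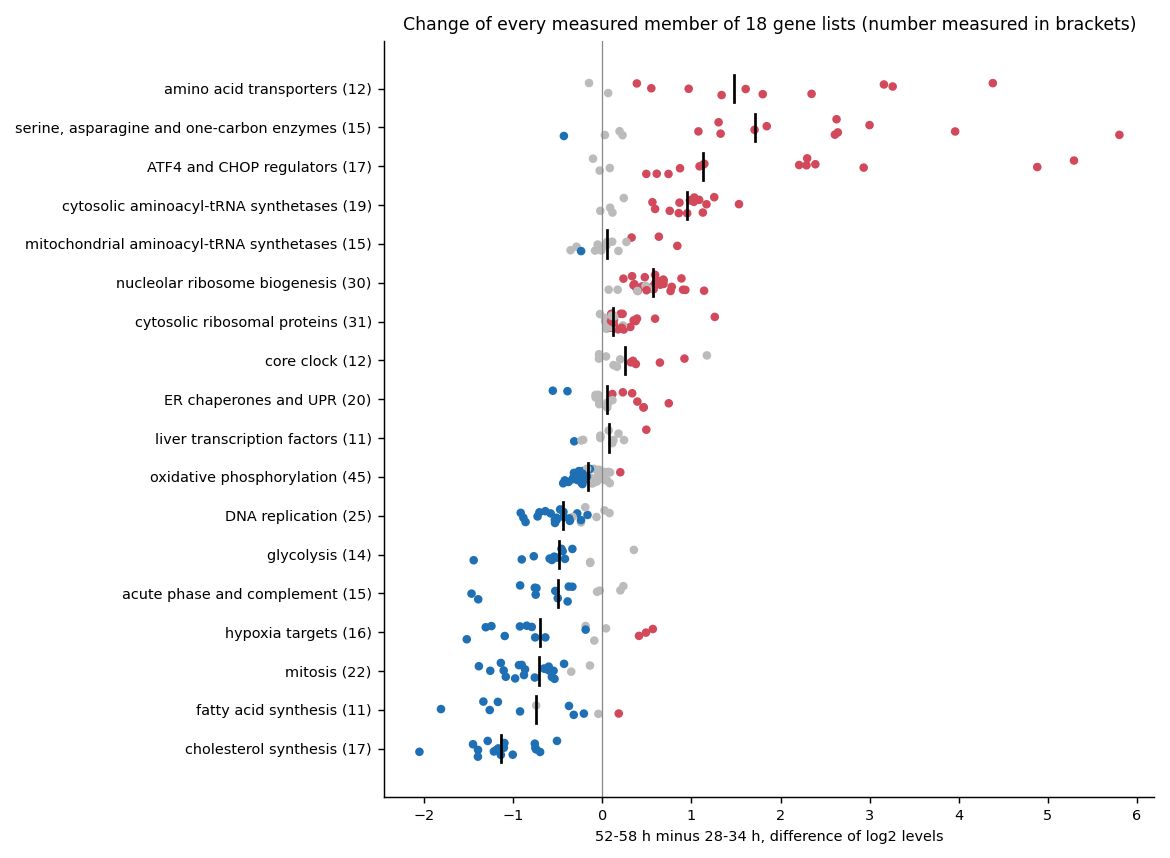
Difference in log2 level between 52-58 h and 28-34 h for each measured member of 18 gene lists, 1 point per gene. Red points rose, blue points fell and grey points did not pass the test, and the black bar is the list's median. All 17 cholesterol synthesis genes lie left of 0, and the lists of the ATF4 pathway lie mostly right of it.

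Cholesterol synthesis was lower at every measured step. All 17 measured enzymes fell, with a median of -1.14 and no overlap between the groups in any of them, and 16 or 17 passed without each pair in turn. Over all 9763 genes, 1759 were lower without overlap. Idi1, the isopentenyl diphosphate isomerase, measured 12.53, 12.32, 12.47 and 12.30 and then 10.21, 10.43, 10.33 and 10.43, a difference of -2.06 ± 0.08 (adjusted p = 3.91e-05), so the later day was 4.16-fold lower. At the entry to the pathway, Hmgcs1 went from 13.96, 14.14, 14.10 and 14.05 to 12.87, 13.03, 12.76 and 12.92. Further on, Mvk, Pmvk and Mvd fell by 0.51, 1.01 and 1.29, and Fdps by 1.40. Past squalene, Sqle fell by 1.19 and Lss by 1.11. Cyp51, the lanosterol demethylase, fell by 1.40 ± 0.06 (adjusted p = 3.54e-05), from 11.30, 11.33, 11.36 and 11.24 to 9.85, 9.86, 9.97 and 9.95. Tm7sf2, the sterol reductase of the next step, fell by 1.45 ± 0.12 (adjusted p = 0.000471).

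Genes of sterol sensing moved in part with the enzymes: 4 of 8 fell and 0 rose. Insig1, which holds SREBP in the endoplasmic reticulum, fell by 1.72 ± 0.12 and Stard4, a cholesterol carrier, by 1.60 ± 0.08 (adjusted p = 0.000232 and 8.97e-05). Npc1l1, a sterol importer, went from 6.21 to 7.12 down to 4.54 to 5.14, and no size is given because 3 of its later arrays were below 5. Among the members at 5 or more on all 8 arrays 3 of 7 fell. The levels of Insig1 were 10.43, 10.10, 10.49 and 10.48 on the earlier day and 8.56, 8.81, 8.53 and 8.72 on the later one. Srebf2, which encodes SREBP2, fell by 0.63 from 11.08 to 11.19 down to 10.47 to 10.53. Scap, the sterol sensor that escorts SREBP2, and Abca1, the cholesterol exporter, had differences of -0.01 and 0.01. In the endolysosomal system, by contrast, Npc1, which lets cholesterol out of lysosomes, rose by 1.28 ± 0.17 (adjusted p = 0.00231, and 0.0678 with no filter on low values).

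The promoters of the cholesterol genes were searched for CCAATCA, an NF-Y type motif, in the same windows and on both strands (TGATTGG in reverse), again after the differences had been seen. It was found for 11 of 14 cholesterol synthesis genes with a window (78.6%). Of all measured genes that hold it 21.6% fell, against 15.1% without it. Over all windows the share was 7.82%, and over measured genes it was 966 of 8021 (12.0%). It was found for 8 of 17 ATF4 and CHOP regulators too, for 9 of 18 mitotic genes, and for 0 of 9 amino acid transporters and 1 of 14 glycolytic genes. Other lists with more rises than falls held it in 6 of 13 serine, asparagine and one-carbon enzymes and 4 of 9 core clock genes. The cytosolic synthetases held it in 3 of 12 and the nucleolar genes in 1 of 24. Stretches from 3 of the genes that fell are given in the same manner, from chr13:8885537-8885596 on the plus strand for Idi1, chr19:6067862-6067921 on the minus strand for Tm7sf2 and chr8:122443423-122443482 on the minus strand for Mvd.
Idi1: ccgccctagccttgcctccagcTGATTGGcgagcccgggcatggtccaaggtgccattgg
Tm7sf2: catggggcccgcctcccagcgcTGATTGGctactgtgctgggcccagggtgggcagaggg
Mvd: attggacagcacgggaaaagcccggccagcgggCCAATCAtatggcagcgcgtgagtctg
The motif is in capitals, on opposite strands in Mvd and in the other two.

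Most genes of fatty acid synthesis fell. Of 11 measured genes 8 fell and 1 rose, with a median of -0.74. Without the pair of 30 and 54 h 6 fell and the median was -0.41, and the first median is the value of Fasn, which had no call. Fads2, a desaturase of polyunsaturated fatty acids, fell by 1.81 ± 0.10 (adjusted p = 0.000117), from 9.95, 9.73, 9.43 and 9.53 to 7.97, 7.75, 7.95 and 7.71. Elovl6, an elongase, fell by 1.27 ± 0.11 (adjusted p = 0.000583), and the stearoyl-CoA desaturases Scd1 and Scd2 by 1.34 and 1.17. Srebf1, which encodes the SREBP1 factor, fell by 0.93. Acaca and Fasn, which carry out the committed and the building steps, had differences of -0.05 and -0.74 and no call. In Fasn the 4 arrays of each day spread widely, at 9.03, 10.01, 9.14 and 9.34 and then 9.17, 8.27, 8.55 and 8.56. Elovl5 rose by 0.18, and this call was lost without any 1 of the pairs of 30 and 54, 32 and 56, or 34 and 58 h (adjusted p up to 0.0741). With no filter on low values 4 genes fell and 0 rose.

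Lipid storage and oxidation genes held no common direction. Of 13 genes of triglyceride handling and lipid droplets 2 rose and 4 fell, with 2 falls remaining without the pair of 32 and 56 h and 2 without that of 34 and 58 h. Lpl, lipoprotein lipase, went from 3.15 to 4.03 up to 5.06 to 5.39. It entered through the later group, and 1 of the 2 rises was of a gene at 5 or more on all 8 arrays. Gpam, which starts glycerolipid synthesis, fell by 0.37 ± 0.06 (adjusted p = 0.00484). Of 13 genes of fatty acid oxidation and of PPAR-alpha targets 2 rose and 4 fell. Acot2, a mitochondrial thioesterase, rose by 1.55 ± 0.08 (adjusted p = 8.85e-05), and Vnn1, a pantetheinase, by 0.88 ± 0.07 (adjusted p = 0.0004). Fabp1, the fatty acid carrier of liver, measured 8.56, 9.58, 9.59 and 9.50 and then 6.61, 6.55, 4.69 and 5.61, a difference of -3.44 ± 0.43 (adjusted p = 0.00212, and 0.0719 with no filter on low values). Its value of 4.69 was below 5, and 3 of the 4 falls were of genes at 5 or more on all 8 arrays. The falls of Acadm and Acadvl, of 0.22 and 0.20, were lost without the pair of 32 and 56 h and without that of 34 and 58 h, when 1 of the 4 falls remained in either case.

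Glycolytic genes and targets of HIF fell together. Of 14 glycolytic genes 11 fell and 0 rose, with a median of -0.49. Of these falls 9 remained without the pair of 32 and 56 h, 8 without that of 34 and 58 h and 8 with no filter on low values. Aldoc, an aldolase, measured 9.62 to 10.01 and then 8.33, 8.36, 8.55 and 8.61, a difference of -1.45 ± 0.08 (adjusted p = 0.000107). Pfkl, the liver phosphofructokinase, fell by 0.91 ± 0.06 (adjusted p = 0.000232) and Ldha, which makes lactate, by 0.77 ± 0.05 (adjusted p = 0.000259). Ldha held close to 1 level within each day, at 14.78 to 14.89 and then at 14.01 to 14.19. Pkm, Tpi1, Pgk1 and Pgam1 fell by 0.57, 0.54, 0.51 and 0.45. At the entry to the pathway, hexokinase 1 (Hk1) fell by 0.42, while Hk2 (hexokinase 2) at 0.35 and Slc2a1 (the glucose transporter GLUT1) at -0.14 had no call.

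Of 16 genes listed as targets of hypoxia-inducible factor, Hif1a itself among them, 10 fell and 3 rose, with a median of -0.70. Adm (adrenomedullin) fell by 1.52 ± 0.14, Bnip3, a mitophagy receptor, by 1.31 ± 0.07 and Ankrd37 by 1.25 ± 0.11 (adjusted p = 0.000733, 0.000102 and 0.000654). The levels of Bnip3 were 12.31, 12.63, 12.62 and 12.71 on the earlier day and 11.12, 11.29, 11.44 and 11.17 on the later one. Pdk1, Higd1a and the prolyl hydroxylases Egln1 and Egln3 fell by 1.10, 0.93, 0.79 and 0.76. Against this direction Vegfa, the vascular growth factor, rose by 0.57 ± 0.08 and Ero1a, an oxidase of the endoplasmic reticulum, by 0.49 ± 0.10 (adjusted p = 0.00266 and 0.00988, and 0.0559 and 0.135 with no filter on low values). The remaining rise was that of Hif1a, by 0.41 ± 0.05 (adjusted p = 0.00192), which encodes the factor and is not its target.

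The windows of these promoters were searched for ACGTG, the core bound by HIF, which is also part of the CACGTG site of clock and MYC factors. It was found for 11 of 14 glycolytic genes and 11 of 14 hypoxia targets (78.6% in each list), against 2462 of 8021 measured genes (30.7%) and 19.6% of all windows. Hif1a is among those of the hypoxia list. It was found for 3 of 14 cholesterol synthesis genes too, and, among lists with more rises than falls, for 5 of 9 core clock genes, 6 of 12 cytosolic synthetases, 6 of 13 serine, asparagine and one-carbon enzymes and 4 of 9 amino acid transporters. Of all measured genes that hold it 14.7% fell, against 16.4% without it. Examples from Ldha at chr7:46845637-46845696 on the plus strand, Pgk1 at chrX:106186928-106186987 on the plus strand and Bnip3 at chr7:138909577-138909636 on the minus strand show it in both orientations.
Ldha: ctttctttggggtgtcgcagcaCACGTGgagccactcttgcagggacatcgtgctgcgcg
Pgk1: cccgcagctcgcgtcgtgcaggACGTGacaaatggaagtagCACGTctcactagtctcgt
Bnip3: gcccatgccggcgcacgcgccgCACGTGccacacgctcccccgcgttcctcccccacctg
The capitals mark every match in the stretch. In Ldha and Bnip3 the matches on the 2 strands overlap in 1 CACGTG, and in Pgk1 they stand apart.

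Proteins that hepatocytes secrete were lower on the later day for several abundant genes. Of 12 measured 5 fell and 3 rose, with a median of -0.47. Of the 3 rises 2 were of genes at 5 or more on all 8 arrays, and Angptl6 entered through the later group. Apoa1, the main protein of high-density lipoprotein, measured 13.78, 14.49, 14.35 and 14.31 and then 12.19, 12.12, 11.35 and 11.16, a difference of -2.53 ± 0.24 (adjusted p = 0.000821), or 5.78-fold. Its later levels were still moving, with more than 1 log2 unit between the first and the last array. Ttr, the carrier of thyroid hormone, fell by 1.19 ± 0.04 (adjusted p = 2.35e-05), from 13.92, 14.00, 13.88 and 13.99 to 12.61, 12.86, 12.68 and 12.85. Alb (albumin) went from 16.01 to 16.22 down to 15.52 to 15.72, and Ambp fell by 0.91. Ahsg (fetuin-A) rose by 0.85 ± 0.07 (adjusted p = 0.000452) and Rbp4, the plasma carrier of retinol, by 0.49 ± 0.07 (adjusted p = 0.00372, and 0.0847 with no filter on low values).

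Acute phase and complement genes fell in 11 of 15 cases and rose in 0, with a median of -0.50. Hp (haptoglobin) went from 10.08, 9.97, 9.94 and 9.97 to 9.09, 9.31, 9.07 and 8.78, a difference of -0.92 ± 0.09 (adjusted p = 0.000973). Hpx (hemopexin), Crp (C-reactive protein) and Cfb (complement factor B) fell by 0.74, 0.75 and 0.76, and the fibrinogen chains Fgb and Fga by 0.53 and 0.50. Saa1 and Saa2, near-identical serum amyloid genes that probes may not tell apart, both fell. Saa1 differed by -1.40, and Saa2 went from 5.77 to 6.55 down to 4.53 to 5.32, with no size given because 3 later arrays were below 5. Without the pair of 34 and 58 h the adjusted p of Saa1 was 0.0604, and without that of 32 and 56 h it was 0.0621. With no filter on low values 4 of the 15 fell. Lcn2, the iron-binding lipocalin, had a difference of -0.06.

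Among transcription factors of liver identity, 9 of 11 had no call. Foxa2 and Cebpa differed by 0.07 and 0.11. Hnf4a fell by 0.32 ± 0.07 (adjusted p = 0.0167), from 12.01 to 12.20 down to 11.64 to 11.88, and the call was lost without the pair of 34 and 58 h and without that of 30 and 54 h (adjusted p = 0.0555 for both). Cebpb rose by 0.49 ± 0.06 (adjusted p = 0.00161). Among keratins and other markers of bile duct and progenitor cells 5 of 8 fell and 1 rose. Epcam fell by 0.91, Cd24a by 0.41 ± 0.03 and Krt8 by 0.35 ± 0.03 (adjusted p = 0.00054 and 0.00057 for the last pair). Sox9 rose by 0.32. The call of Epcam was lost without the pair of 34 and 58 h (adjusted p = 0.0668) and without that of 32 and 56 h (adjusted p = 0.0577), and that of Sox9 without any 1 of the 4 pairs (adjusted p up to 0.103).

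In a culture, fewer cells of a type and less RNA per cell cannot be told apart, which touches every list of cell type genes here. The log2 of the summed level of 8 hepatocyte markers was 16.7 to 16.9 on the earlier arrays and 15.9 to 16.1 on the later ones, and 5 of the 6 measured fell. The hepatocyte enzymes Tat and Cps1, also on that list, were at the lowest value of the table on all 8 arrays. For 5 bile duct and progenitor markers the sum was 15.7 to 15.9 and then 15.5 to 15.6. The 6 macrophage markers summed to 14.7 to 14.9 and then 14.6 to 14.7, nearly all of it Cd14. None of 8 fibroblast and stellate markers and none of 5 endothelial markers reached 5 on any of the 8 arrays.

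Genes of detoxification were lower too. Of 15 glutathione S-transferases and glucuronosyltransferases 10 fell and 0 rose, with a median of -0.20. Of these falls 7 remained without the pair of 32 and 56 h, 7 without that of 34 and 58 h and 6 with no filter on low values. Gstt1 fell by 0.82 ± 0.07 and Gstm5 by 0.56 ± 0.05 (adjusted p = 0.000436 and 0.00048), and Gsta2 fell by 1.90 ± 0.29 (adjusted p = 0.00399, and 0.0943 with no filter on low values). Sult1a1, a phenol sulfotransferase, fell by 2.20 ± 0.06 (adjusted p = 6.43e-06), from 13.79, 13.77, 13.65 and 13.84 to 11.40, 11.63, 11.53 and 11.69. Rdh7, a retinol dehydrogenase, measured 8.0, 8.51, 8.42 and 8.37 and then 5.28, 5.71, 5.02 and 5.55, a difference of -2.94 ± 0.13 (adjusted p = 5.57e-05). The cytochrome P450 gene Cyp2c29 and the glucuronosyltransferase gene Ugt2b38, members of families of near-identical genes, had differences of -1.92 and -2.07. Of 11 NRF2 targets and redox genes 3 rose and 5 fell. Osgin1 fell by 0.35 ± 0.05 (adjusted p = 0.00432). The 3 rises, of Hmox1, Abcc1 and Txnrd1, were all lost without the pair of 34 and 58 h (adjusted p = 0.0659, 0.087 and 0.164), when 3 of the falls remained.

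The largest falls among genes measured on all 8 arrays were those of 2610528A11Rik (-2.99 ± 0.31, adjusted p = 0.00109), Rdh7, 2210407C18Rik (-2.57 ± 0.20, adjusted p = 0.000436) and Apoa1. Next in size beside those above were Mptx1, a mucosal pentraxin (-2.17), Mxd3, a partner of MAX found in dividing cells (-2.04 ± 0.14), Tm4sf20, and Kbtbd11 (-1.96 ± 0.11). Both 2610528A11Rik and Mptx1 reached their lowest levels on the last array, at 7.60 and 9.81. With no filter on low values the adjusted p of 2610528A11Rik, Mptx1, Ugt2b38, Tm4sf20 and Cyp2c29 lay between 0.0501 and 0.0871, while Rdh7, 2210407C18Rik, Mxd3 and Kbtbd11 kept their calls. Among genes below 5 on every later array, the largest differences were those of C9 (complement component, from 6.76 to 7.41 down to 2.79 to 4.47), Aadac (a deacetylase of the endoplasmic reticulum, from 6.72 to 6.93 down to 4.53 to 4.90), Ms4a10, Ccl9 and Adhfe1, of which Ms4a10 and Adhfe1 lost their call with no filter (adjusted p = 0.125 and 0.0726).

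Several clock genes stood higher on the later day. Of 12 measured 5 rose and 0 fell, with a median of 0.26. The share of the list with a call, 41.7%, was near that of all genes. Over all genes 37% had a call and 21.2% rose. Nr1d2, which encodes REV-ERB-beta, measured 9.87, 9.67, 10.31 and 10.76 and then 10.82, 10.92, 11.12 and 11.44, so that it climbed on both days and every later array exceeded every earlier one. The difference was 0.92 ± 0.10 (adjusted p = 0.00117). Its partner Nr1d1, REV-ERB-alpha, climbed from 4.20 through 5.88 and 6.83 to 7.30 on the earlier day and was at 7.01, 6.95, 7.34 and 7.60 on the later one. Its difference of 1.17 ± 0.40 did not pass (adjusted p = 0.0617), and it passed without the pair of 28 and 52 h (adjusted p = 0.0334), the pair with the widest gap. Arntl, which encodes BMAL1, rose by 0.65 ± 0.09 (adjusted p = 0.00313, and 0.0505 with no filter on low values), from 8.65, 8.51, 8.68 and 8.44 to 9.22, 9.25, 9.10 and 9.30. Activator and repressor of the same loop were thus both higher at the same hours.

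Of the repressors of the PER and CRY arm, Per1, Per2 and Cry1 had no call. Per2 measured 7.41, 6.93, 5.24 and 5.47 and then 7.29, 6.66, 5.79 and 5.80, a difference of 0.12 ± 0.15 (adjusted p = 0.572). Cry1 was lower at each later hour of the window on both days, at 9.76, 9.39, 8.85 and 8.24 on the earlier day and 9.71, 9.46, 9.06 and 8.81 on the later, a difference of 0.20 ± 0.11 (adjusted p = 0.208). Both genes started the 2 windows at nearly the same level and ended them lower. The widest gaps between the days were 0.55 for Per2, at 32 and 56 h, and 0.57 for Cry1, at 34 and 58 h. Per1 had a difference of 0.16 ± 0.13 (adjusted p = 0.378). Clock rose by 0.34 ± 0.08 (adjusted p = 0.0178), Cry2 by 0.32 ± 0.08 (adjusted p = 0.0192) and Csnk1e, a casein kinase that phosphorylates PER, by 0.38 ± 0.07 (adjusted p = 0.00999). The calls of Clock and Cry2 were lost without the pair of 34 and 58 h (adjusted p = 0.0642 and 0.0948), and those of Cry2 and Csnk1e without that of 32 and 56 h (adjusted p = 0.099 and 0.0529), so that 3 clock genes passed in either case. With no filter on low values 1 passed. Without the pair of 30 and 54 h the adjusted p of Clock was 0.0514. Its other probe sets had differences of -0.09 and 0.001 and no call. Rora, Bhlhe40 and Csnk1d had differences of -0.04, 0.04 and -0.04. Npas2, Per3, Bhlhe41 and Ciart lay below the filter.

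**Figure D3:**
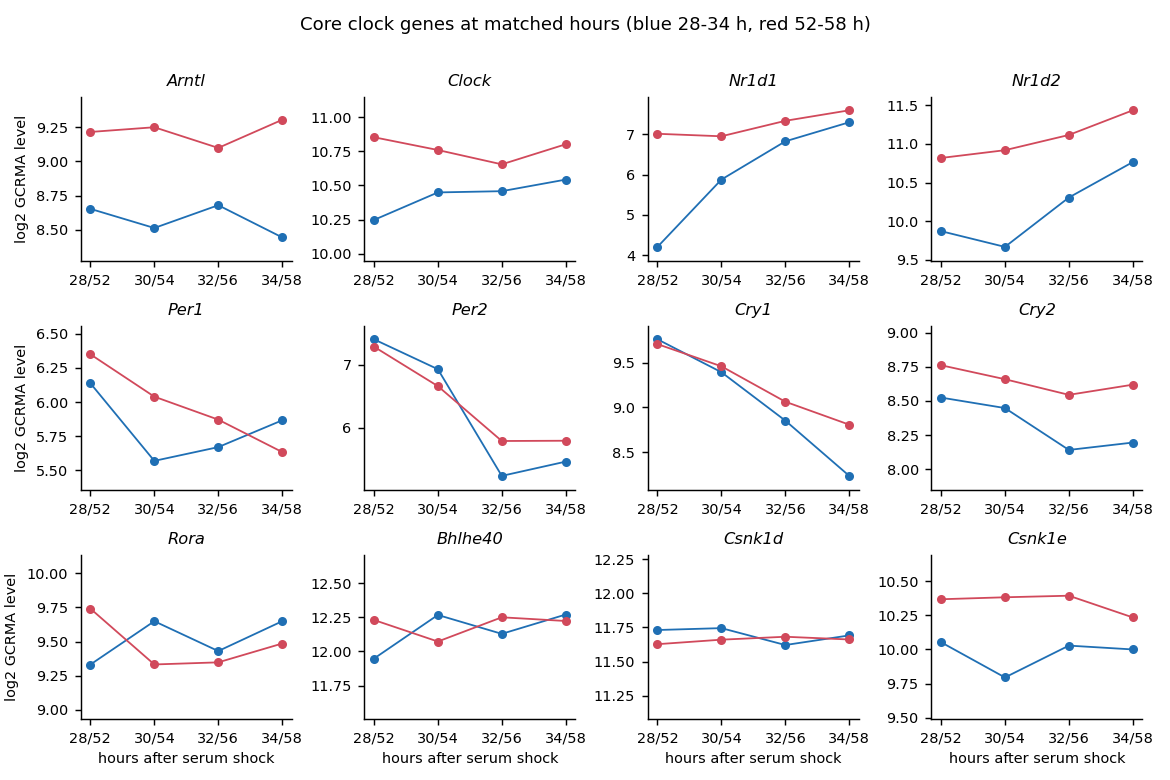
Log2 GCRMA level of the 12 measured core clock genes against hours after serum shock, with the arrays at 28, 30, 32 and 34 h in blue and those taken 24 h later in red at the same place on the axis. Each panel has its own vertical scale. Nr1d2, Arntl, Cry2, Clock and Csnk1e are higher on all 4 later arrays, and Per2 and Cry1 cross or lie near their earlier levels.

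Of 13 output genes of the clock 5 rose and 2 fell. Nfil3, a repressor that opposes the PAR bZIP factors, rose by 1.30 ± 0.10 (adjusted p = 0.000339), from 7.60 to 7.99 up to 8.95 to 9.16. Dbp and Tef, which encode PAR bZIP factors, had differences of -0.28 and 0.16. Pim3, a kinase, rose by 0.86 ± 0.09 and Tsc22d3, a glucocorticoid target, by 0.67 ± 0.06 (adjusted p = 0.00117 and 0.000635). Tfrc, the transferrin receptor, fell by 0.93 ± 0.09 (adjusted p = 0.000814), and Hsd11b1, which regenerates glucocorticoids, by 1.10 ± 0.16 (adjusted p = 0.00364, and 0.0806 with no filter on low values).

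Genes of cell division were lower on the later day. Of 22 mitotic genes 20 fell and 0 rose, with a median of -0.71. Aurkb, a kinase of chromosome segregation, measured 10.22, 10.09, 9.94 and 9.94 and then 8.53, 8.54, 8.80 and 8.76, a difference of -1.39 ± 0.11 (adjusted p = 0.000422). Ccna2 (cyclin A2) fell by 1.14 ± 0.10 (adjusted p = 0.000557) and Mki67, which encodes the antigen Ki-67, by 1.26 ± 0.23 (adjusted p = 0.00752). Ube2c, an enzyme of mitotic exit, had a difference of -0.14 ± 0.08 and no call. The count of 20 was 19 to 21 without each pair in turn, but 5 when the spread was estimated from all 24 arrays as 12 pairs, and 11 with no filter on low values. Of 25 DNA replication genes 19 fell and 0 rose, with a median of -0.44, and 8 fell without the pair of 34 and 58 h and 4 with no filter. Tk1 (thymidine kinase) fell by 0.89 ± 0.09 (adjusted p = 0.000817) and Fen1, a flap nuclease, by 0.92 ± 0.11 (adjusted p = 0.00185).

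The cyclins, their inhibitors and p53 targets went both ways, with 6 of 20 higher and 4 lower. The G1 cyclin gene Ccnd1 rose by 0.35 ± 0.04 (adjusted p = 0.00133), while Ccne1 and Ccne2, the cyclins of entry into S phase, fell by 1.04 and 0.75 (adjusted p = 0.00689 and 0.00585). Cdkn2c, a CDK inhibitor, fell by 1.31 ± 0.10 (adjusted p = 0.000405), from 8.19 to 8.47 down to 6.83 to 7.24. Bbc3, which encodes the death protein PUMA, rose by 1.04 ± 0.06 (adjusted p = 0.000148). The p53 target Cdkn1a (p21) had a difference of 0.14. Of the 6 rises 3 remained without the pair of 32 and 56 h and 3 without that of 34 and 58 h.

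Mitochondrial and protein-quality genes changed by small amounts. Of 45 subunits of oxidative phosphorylation 21 fell and 1 rose, with a median of -0.17. Cox7a2 and Cox6b1, subunits of cytochrome oxidase, fell by 0.44 ± 0.05 and 0.42 ± 0.04 (adjusted p = 0.00127 and 0.000577). The count of 21 was 14 without the pair of 32 and 56 h and 12 without that of 34 and 58 h, and 9 with no filter on low values. Of 30 mitochondrial ribosomal proteins 5 rose and 1 fell (median 0.03), with Mrps18b up by 0.68 ± 0.06 (adjusted p = 0.00077) and 2 rises remaining without the pair of 34 and 58 h, but 9 rises without that of 28 and 52 h. Of 31 proteasome subunits 7 rose and 3 fell (median 0.05), all differences between -0.32 and 0.31, and 3 rises and 0 falls remained without the pair of 34 and 58 h, but 11 rose without that of 28 and 52 h and 11 with no pair term. Over all genes 21.2% rose and 15.8% fell.

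Chaperones of the endoplasmic reticulum rose in 7 of 20 cases and fell in 2, with a median of 0.05. Herpud1, of the degradation machinery, rose by 0.74 ± 0.05, Hspa5, the chaperone BiP, by 0.46 ± 0.03 and Sel1l by 0.46 ± 0.06 (adjusted p = 0.000203, 0.000271 and 0.00288). Another probe set of Hspa5 had a difference of -0.06. Sdf2l1 and Calr, which encode chaperones of the same compartment, fell by 0.56 ± 0.07 and 0.39 ± 0.04 (adjusted p = 0.0026 and 0.00107). Xbp1, the factor of the IRE1 branch, had a difference of -0.06. Without the pair of 34 and 58 h 4 of the rises remained, and 4 without that of 32 and 56 h. Of 14 heat shock proteins 5 rose and 3 fell, led by the mitochondrial chaperone Hspa9, which measured 13.49, 13.38, 13.37 and 13.47 and then 14.61, 14.51, 14.51 and 14.60 (1.13 ± 0.03, adjusted p = 6.43e-06). Without the pair of 32 and 56 h 2 of these rises and 1 fall remained, and 3 and 2 without that of 34 and 58 h. Of 24 lysosome and autophagy genes 10 rose and 2 fell, among them Sqstm1, the autophagy receptor p62 (0.73 ± 0.06, adjusted p = 0.000383).

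The remaining lists had few calls or calls in both directions. Of 20 immediate early genes and targets of SRF and YAP 9 rose and 5 fell, with Fosl1 up by 1.0 ± 0.08, Ccn1 down by 0.56 ± 0.07 and 5 rises remaining without the pair of 34 and 58 h. Of 14 NF-kappaB targets and chemokines 4 rose and 4 fell: Cxcl2 and Cxcl1, which attract neutrophils, rose by 0.91 ± 0.07 and 0.43 ± 0.04 (adjusted p = 0.000419 and 0.000716), and the falls of Icam1, Birc3 and Ccl2 were lost without that pair. Of 13 interferon-inducible genes 3 rose and 1 fell, and Irf9 (0.62 ± 0.08, adjusted p = 0.00233) was the one that rose without each pair in turn. Of 22 genes of matrix, integrins and junctions 4 rose and 2 fell, with 2 rises and 1 fall left without the pair of 30 and 54 h and as many without that of 32 and 56 h. Of 9 metallothioneins and glucocorticoid targets 1 rose and 1 fell, of 7 iron genes 1 and 2, and of 8 genes of the insulin-like growth factor axis 1 and 1. Slc40a1, the iron exporter, fell by 0.43 ± 0.05 (adjusted p = 0.00206) and Igfbp3 rose by 0.47 ± 0.05 (adjusted p = 0.00111). Of 9 polyamine genes 3 rose and 1 fell, with Odc1, the first enzyme of the pathway, up by 0.65 ± 0.07 (adjusted p = 0.00101).

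The change of 24 h was also taken in 4 pairs that share no array with the comparison. They set 12, 14, 16 and 18 h against 36, 38, 40 and 42 h, at other hours of the cycle and nearer the shock. These pairs therefore do not measure an ordinary change of 24 h. The later pair differences that gave the calls enter again here, so the list counts below are not independent support for those calls. The 2 changes of 24 h differed in 2704 of 9763 genes (27.7%) by the limma test of the difference. Of the 17 ATF4 and CHOP regulators, 12 had a higher change in the later set of pairs and 0 a lower one, and the list's median change in the earlier set was -0.03. Chac1, whose low level may not be above background, had fitted changes of -0.35 in the earlier set and 5.30 in the later (adjusted p of the difference = 6.6e-08). Amino acid transporters differed in 10 of 12 cases, cytosolic synthetases in 14 of 19 and nucleolar genes in 24 of 30, all upward. Cholesterol genes differed in 15 of 17, all downward, from a median of 0.01 in the earlier set. Trib3, Cth, Cd53 and Mmp13 had the next largest differences upward, at 5.09, 4.46, 4.31 and 3.83. The low levels of Cd53 may not be above background either.

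Mitotic genes differed most, and downward in 22 of 22. Their median change was 3.50 over the earlier 24 h and -0.71 over the later. Ccnb2 (cyclin B2) had risen by 5.14 between 12-18 h and 36-42 h and fell by 1.09 ± 0.09 in the comparison, a difference of -6.23 (adjusted p = 1.2e-06). Ube2c, with no call on the later day, differed by -5.22 and had risen by 5.08 over the earlier 24 h. Nusap1, Mki67 and Cdca3 followed at -4.98, -4.93 and -4.85. For some falls no difference from the earlier 24 h was found: Tm4sf20 and Mptx1 had changed by -2.03 and -2.20 in the earlier set as well, and their difference of 0.03 and 0.04 did not pass (adjusted p = 0.96 for both).

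**Figure D4:**
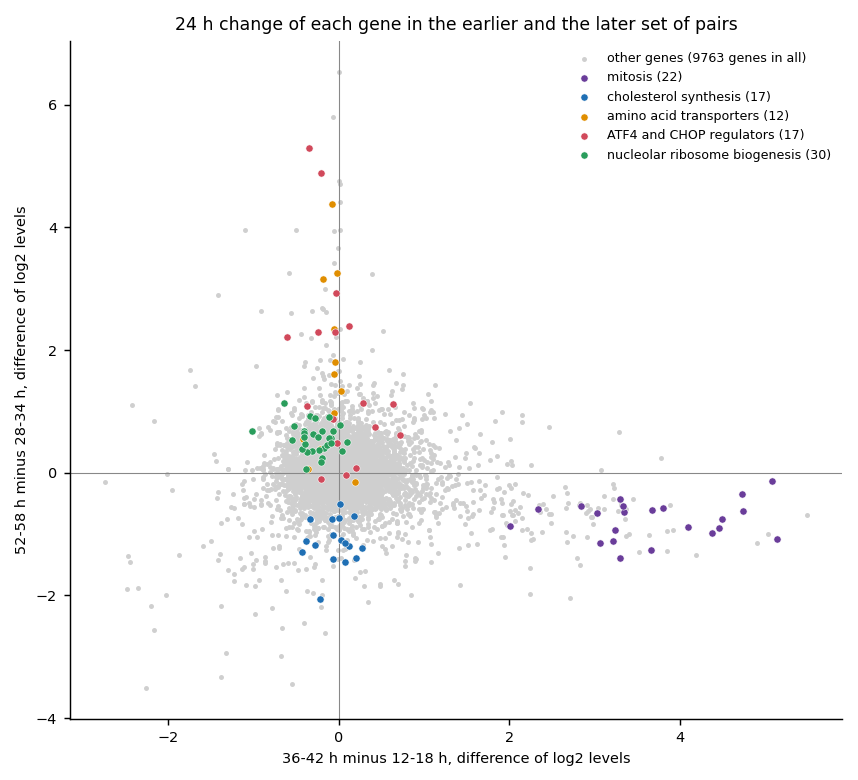
Change in log2 level of each of 9763 genes over 24 h, from 12-18 h to 36-42 h on the horizontal axis and from 28-34 h to 52-58 h on the vertical axis, with the members of 5 lists in colour. The ATF4 and CHOP regulators and amino acid transporters lie above 0 at about no earlier change, cholesterol genes lie below, and mitotic genes lie far to the right and below 0.

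The arrays between the 2 days place the change in time. The 324 genes that passed and differed by at least 2-fold were followed. For each, the mean of a 4-array block was set as a share of the way from the 28-34 h to the 52-58 h mean. Both ends of the way are the means by which the genes were picked. Some genes, such as Cdsn and C9, were below 5 on every array of 1 group, so their way starts or ends near background. Probe sets with such a change numbered 571, and 473 when 5 or more was required on all 8 arrays. At 36-42 h the 158 genes that rose had gone a median of 7.26% of the way, with 2 genes past the middle, and the 166 that fell 9.18%, with 4 past it. At 44-50 h the genes that rose had gone 95.7% of the way, with 155 of 158 past the middle. The genes that fell had gone 65.2%, with 109 of 166 past it. The list medians show the same on single arrays. Relative to the 28-34 h mean, the amino acid transporters were at 0.28 at 42 h, 1.08 at 44 h and 1.48 at 46 h, and at 1.39 to 1.56 from 52 to 58 h. Cholesterol genes were at 0.07 at 42 h, -0.62 at 44 h and -0.89 at 46 h, and at -1.02 to -1.20 from 52 to 58 h. Mitotic genes passed a low of -1.56 at 48 h, and on the compared later arrays lay between -0.54 and -0.83.

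**Figure D5:**
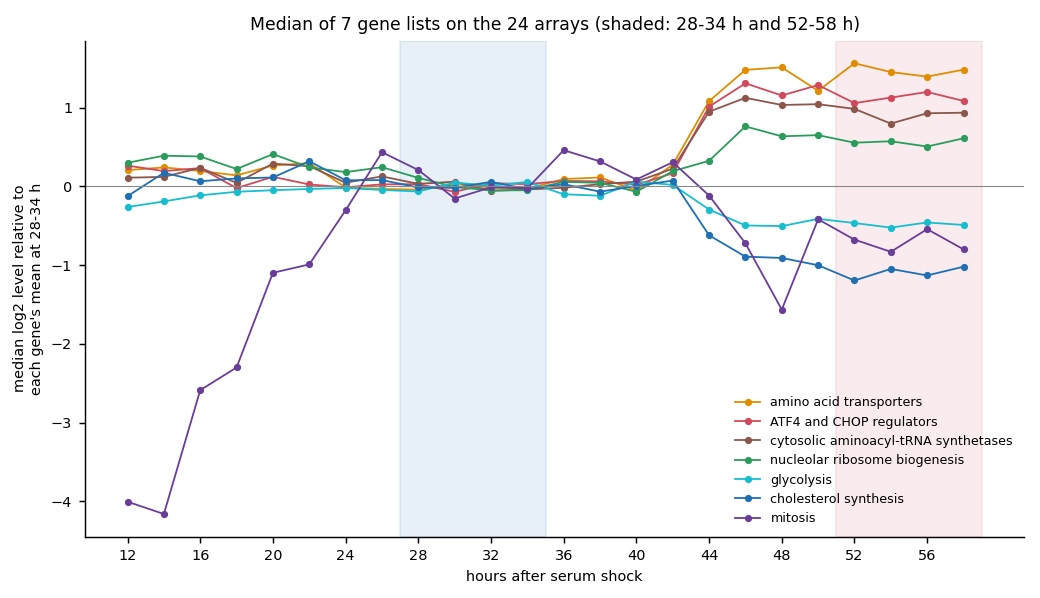
Median over the measured members of 7 gene lists on each of the 24 arrays, as log2 level relative to each gene's own mean at 28-34 h, against hours after serum shock. The shaded bands are the 2 compared groups. Lists of the ATF4 pathway step up and glycolysis and cholesterol genes step down between 42 and 46 h, and the mitosis list climbs from -4.01 at 12 h before it falls.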

How the data were processed

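Each time point's RNA from MMH-D3 cells was hybridised to 1 Affymetrix mouse array. The values used are the log2 levels by probe set that the authors deposited. The submitters' processing notes name GCRMA, with its version not given in the sources used here. That they are log2 was read from their range. The number of arrays limits the precision.

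Probe sets were named through GEO's platform annotation: of 18354 kept, 17009 had 1 symbol, 499 several and 846 none, and 16986 matched RefSeq by Entrez ID. Differences were fitted with limma 3.58.1 in R 4.3.3, with the pair as a block and an intensity trend in the variance prior, adjusted by Benjamini-Hochberg over all kept probe sets. The pairs are 24 h apart by the labels' times. The change of 24 h was compared with that of the earlier pairs by limma on the pair differences. Both fits were tested on simulated data.

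The members and the 45 gene lists (40 of functions, 5 of markers) were chosen with earlier results of these data known. Lists are described by counts and medians, with no test. The genes named were the 12 largest rises and falls on all 8 arrays, 5 of each below 5 in 1 group, up to 3 of each per list, the clock genes, and 5 of each in the comparison of changes. Other genes named, and the promoter motifs, were chosen after their values were seen. Promoters are RefSeq's (GRCm38.p6). Alternatives were other filters, normalizations and variance settings, no pair term, other probe sets, and each pair left out.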

Additional observations from a re-analysis of the deposited data

Results flagged for a closer look

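The named genes were 188 with a call and 8 without. With 4 pairs per gene, 1 pair difference lay far from the other 3 in 10 of them. Chance gives such a gap in about 1 of 20 groups, so this is about the number that chance gives. The odd pair difference was the lowest for Chac1 (5.11), Wdr75 (0.79), Eif4ebp1 (0.74), Rdh7 (-3.40), Sult1a1 (-2.39), Ccne2 (-1.24) and Sesn3 (-0.65), and the highest for Plin2 (0.51), Sox9 (0.61) and Icam1 (-0.14). None of these turned the sign of its gene.

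The change of 24 h differed between the earlier and the later set of pairs in 4803 probe sets by limma. Among genes at 5 or more on all 16 arrays the largest differences upward were those of Chac1 (5.64), Trib3 (5.09), Cth (4.46), Cd53 (4.31) and Mmp13 (3.83), and downward those of Ccnb2 (-6.23), Ube2c (-5.22), Nusap1 (-4.98), Mki67 (-4.93) and Cdca3 (-4.85). The values of Chac1 and Cd53 include levels that may not be above background. All 10 passed under each alternative run for that comparison.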

How the results depend on the processing

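Of the 6516 probe sets that passed, the count was 2571 with no filter on low values, and 3472 to 6622 with 1 pair left out, the lowest without 34 and 58 h. Dropping the pair block gave 7669. Centring on the median gave 6325 and quantile normalization 6423, with 3117 and 3258 of them higher. The count of probe sets that differed from the earlier 24 h change stayed within 3267 to 5596. Of 188 named genes that passed, 77 lost their call with no filter, 38 without 34 and 58 h, 32 without 32 and 56 h, 20 without 30 and 54 h, 5 without 28 and 52 h, 16 with the spread of all 24 arrays, 10 with 1 variance prior, 5 after centring, 3 after quantile normalization and 2 with no pair term. Among other probe sets of the named genes that passed the sign turned in 4: Hspa5 (-0.0629), Col18a1 (-0.0346), Eif4ebp2 (0.0117) and Clock (-0.0912). A further 24 kept the sign without a call, and 110 kept the call. The cause was not tested. Transcripts near the lowest value have only an upper bound, so differences of dim genes are limited by signal over background.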

Other observations

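Host genes of small nucleolar RNAs, whose spliced transcripts are known to be short-lived while ribosomes translate them, stood high on the later day. Their symbols were chosen after values had been seen, so they are a description without support from the choice. Of 12 measured genes with Snhg symbols or Gas5, 10 rose and 0 fell, with a median difference of 0.98. Gas5 measured 12.49, 12.37, 12.43 and 12.47 and then 14.39, 14.35, 14.55 and 14.46, a rise of 1.99 ± 0.04 (SE, n = 4 pairs, limma adjusted p = 4.31e-06). Snhg12 rose by 2.31, Snhg1 by 1.66, Snhg5 by 1.45 and Snhg6 by 1.03. Snhg17 was at 4.11 to 4.43 on the earlier arrays and 5.82 to 5.97 on the later ones, so it entered through the later group, had to differ and is given no size. Snhg3 (0.91) and Snhg14 (0.08) did not pass. In the comparison of the 2 changes of 24 h, 10 of the 12 had a higher change in the later set of pairs.

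The share of genes that passed rose with their level. It was 31.1% in the lowest tertile of mean level, 33.8% in the middle and 45.9% in the highest, while the median size of a difference was 0.21, 0.17 and 0.17. The first pair, 28 and 52 h, had 590 probe sets up and 304 down by at least 2-fold, and the third, 32 and 56 h, had 288 up and 331 down.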
